A study of Mus musculus with 3 samples.

Results

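Monocytes1 is one of 25 clusters into which the study's authors sorted the cells of 3 melanomas from a mouse model, and its 475 cells of 12670 are described here. The members are the cells that the deposited cluster table names Monocytes1, joined to their columns in the 3 count tables. They comprised 225 of 4095 cells in the untreated tumor, 197 of 3726 cells in the tumor regressed on vemurafenib and 53 of 4849 cells in the tumor progressed on vemurafenib.

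The tumors arose in the skin of mice on a C57BL/6 background, in a genetically engineered model whose alleles include Braf LSL.V600E and Tyr.CreER, in some mice with Rosa26 LSL.tdTomato, and the labels do not give the genotype of the single mice. The tyrosinase promoter drives the Cre in melanocytes after 4-OH tamoxifen is put on the skin, so that the recombined cells are of the melanocyte lineage and the monocytes are cells of the host. Vemurafenib, an inhibitor of mutant BRAF, was given by mouth. Single cells were measured with a 3′ droplet kit that counts unique molecular identifiers (UMIs), which mark single captured mRNA molecules. The age and sex of the 3 mice and the days on treatment were not given in the labels. The regressed tumor differed from the others in sex-linked genes, with 0 UMIs of Xist and 254 CPM of Y-linked genes in Monocytes1, so that treatment and the sex of the mouse cannot be told apart in comparisons with it.

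Each condition is 1 tumor and 1 library, so no difference between tumors has a replicate check and no test was made. Levels are CPM, the counts of a gene per 1000000 of the UMIs summed over the Monocytes1 cells of a tumor, with exact Poisson 95% intervals. Differences are log2 ratios of CPM with exact 95% intervals, and shares of cells have exact Clopper-Pearson 95% intervals. All of these cover counting error only and leave out the spread between animals. Where 3 values stand together, they follow the order untreated, regressed, progressed. The sums held 1123776, 823721 and 248781 UMIs, so that the progressed values are the least precise. A gene without a UMI is set to a floor of 3 UMIs in the sum, which is 2.67, 3.64 and 12.1 CPM in the same order. The median Monocytes1 cell held 4873, 4248 and 4673 UMIs, with highest cells of 21109, 11752 and 19962 UMIs.

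Classical monocytes leave the bone marrow, carry Ly6c2 and the chemokine receptor Ccr2, and enter inflamed tissue and tumors, where they can become macrophages or antigen-presenting cells. On the way they lose Ly6c2 and Plac8, and, depending on the signals in the tissue, take on inflammatory chemokines, arginase, complement components or major histocompatibility complex (MHC) class II. Non-classical monocytes, which patrol vessels, are low in Ly6c2 and carry Treml4, Adgre4 and Cx3cr1.

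Of the 7 given markers, 5 had their highest CPM in Monocytes1 in every tumor, among clusters of at least 10 cells. Against all other cells of the series the leading genes of Monocytes1 were Chil3, a chitinase-like secreted protein (92.5-fold), F10, coagulation factor X (47.3-fold), and Msr1, a scavenger receptor (37.6-fold). They were followed by Apoc2, an apolipoprotein (34.9-fold), Arg1, which breaks down arginine (32.7-fold), Lyz2, the myeloid lysozyme (30.1-fold), and Ms4a4c, a membrane protein of monocytes (28.8-fold). These genes helped to make the clusters, so the folds and the ranks of the given markers describe the cluster and are no test of it. Among clusters of at least 10 cells, Monocytes1 had the highest CPM of all 7 given markers in the untreated and regressed tumors, each with 21 such clusters. In the progressed tumor, with 18 such clusters, it was highest for Chil3, F10, Msr1, Lyz2 and Ms4a4c, but Arg1 ranked 9 and Mmp12 had 0 UMIs. Chil3 and Lyz2 have near-identical neighbors, Chil4 and Lyz1, between which uniquely mapped reads can be lost or split.

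Markers of other cell types were also found in Monocytes1 and differed between tumors. Macrophage genes summed to 7277, 10073 and 8405 CPM, against 3251, 5326 and 4037 CPM in stromal cells. Neutrophil genes summed to 3405, 986 and 149 CPM, against 882, 598 and 86.7 CPM in stromal cells. Fibroblast genes summed to 3135, 5196 and 6033 CPM, against 47034, 40333 and 47324 CPM in stromal cells. Genes of T and NK cells reached 69.4, 158 and 4.02 CPM, and genes of melanoma cells 64.1, 87.4 and 56.3 CPM. Haemoglobin genes were at 102, 3709 and 0 CPM, and stromal cells held a like 74.1, 3108 and 1.53 CPM. Hbb-b1 held the same counts as Hbb-bs in every Monocytes1 cell, and Hbb-b2 the same as Hbb-bt. Both features of each pair were summed, so these haemoglobin levels are too high. Mast cell genes (19.6, 620 and 72.4 CPM) and keratinocyte genes (141, 918 and 209 CPM) also had values like those of stromal cells (17, 566 and 64.8 CPM, and 126, 782 and 172 CPM). Cells in which at least 1% of UMIs came from collagen genes or from S100a8 and S100a9 numbered 19, 6 and 3, and no doublets had been removed. The files number the cells without barcodes, so that barcodes shared between libraries could not be counted.

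The sequences just upstream of 4 genes are printed first because they carry the groups of genes on which the comparison of tumors turns, the inflammatory chemokines and MHC class II. Each runs 5′ to 3′ on the gene's own strand over the 150 bases before the annotated start in RefSeq's GRCm38.p6. Capitals mark GGG and TTTCC with any 2 bases between them, a form of the NF-kB motif, in the chemokine genes Cxcl2 (chr5:90903749-90903898, plus strand) and Cxcl3 (chr5:90785951-90786100, plus strand). In the MHC class II genes H2-Aa (chr17:34287824-34287973, minus strand) and H2-Eb1 (chr17:34305717-34305866, plus strand) capitals mark CCAAT or its complement ATTGG, the letters of the box that NF-Y binds.
Cxcl2: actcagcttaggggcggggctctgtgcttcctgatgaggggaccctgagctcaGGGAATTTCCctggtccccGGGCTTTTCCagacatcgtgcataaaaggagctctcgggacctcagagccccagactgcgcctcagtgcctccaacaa
Cxcl3: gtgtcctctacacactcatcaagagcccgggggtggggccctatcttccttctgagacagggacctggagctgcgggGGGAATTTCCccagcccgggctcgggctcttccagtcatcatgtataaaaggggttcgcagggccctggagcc
H2-Aa: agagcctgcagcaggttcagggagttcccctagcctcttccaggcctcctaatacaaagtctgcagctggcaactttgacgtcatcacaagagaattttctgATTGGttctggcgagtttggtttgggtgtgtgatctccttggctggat
H2-Eb1: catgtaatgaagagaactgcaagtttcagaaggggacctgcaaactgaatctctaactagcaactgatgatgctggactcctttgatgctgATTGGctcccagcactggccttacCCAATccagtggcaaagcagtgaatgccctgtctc
Searched on both strands, this form of the NF-kB motif occurred in 304 of 32843 promoter windows of this length (0.926%) and CCAAT in 8047 (24.5%). The motifs do not overlap one another, and a match is a string of letters and not a measured site.

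The first question is how large the Monocytes1 cluster was in each tumor. It made up 21.4% of immune cells in the untreated tumor (95% interval 18.9 to 24.0), 20.6% in the regressed tumor (18.1 to 23.3) and 7.76% in the progressed tumor (5.87 to 10.0). The counting intervals of the first pair overlap, and that of the progressed tumor lies below both. Set against Macrophages alone, Monocytes1 made up 41.9% (37.7 to 46.2), 57.9% (52.5 to 63.2) and 13.5% (10.3 to 17.3) of both clusters together. There were thus 225 Monocytes1 cells beside 312 Macrophages without treatment, 197 beside 143 at regression and 53 beside 339 at progression. Macrophages of the regressed tumor were shallow, with a median of 1388 UMIs, and of the cells with at least 1000 UMIs Monocytes1 made up 66.7% of both clusters there and 23.4% of immune cells. These are shares of captured cells, and the part of tissue digestion in them was not tested.

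**Figure D1:**
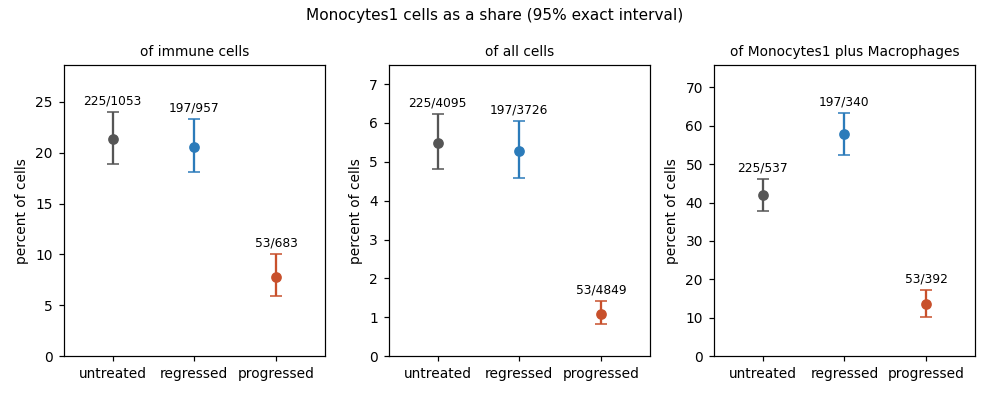
Share of Monocytes1 cells in each tumor, in percent of the cells named under each panel, with exact 95% binomial intervals that cover counting error only. The progressed tumor is lowest in every panel, and the regressed tumor is highest against Macrophages (57.9%).

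The given markers did not move together across tumors. Chil3, at chr3:106147554-106167564, was at 689, 799 and 667 CPM, the most even of the 7. Its log2 ratio of 0.21 between the regressed and untreated tumors turned to -0.06 when the libraries were scaled by the trimmed mean of M values (TMM). Lyz2 (chr10:117277541-117282272) was at 7254, 9808 and 20673 CPM, a log2 ratio of 1.51 (1.46 to 1.56) between the progressed and untreated tumors. Ms4a4c (chr19:11404717-11427246) also stood lowest in the untreated tumor, at 174 CPM, with 363 at regression and 450 at progression. Lyz2 and Ms4a4c therefore had their highest level in the tumor with the fewest Monocytes1 cells. The order of Lyz2 was not the same in other clusters, at 3629, 8281 and 5495 CPM in Macrophages and 911, 680 and 1663 CPM in Monocytes2.

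Arg1 and Mmp12 showed the opposite order. Arg1 (chr10:24915207-24927470) was at 444 CPM in 61 untreated cells, 331 CPM in 42 regressed cells and 8.04 CPM in the progressed tumor, where 1 cell held both UMIs. The log2 ratio of the progressed to the untreated tumor was -5.79 (-8.84 to -3.93). Mmp12, the macrophage elastase (chr9:7344397-7360461), was at 151, 23.1 and 0 CPM, so that the progressed level was at least 12.5-fold lower than the untreated one. When each cell was thinned to 1000 UMIs, Arg1 was found in 37 of 219 untreated cells (16.9%), 27 of 184 regressed cells (14.7%) and 0 of 49 progressed cells, which allows a share of up to 6.12%. Stromal cells, which should lack Arg1, held it in 0.731%, 0.692% and 1.38% of cells at a like depth. The untreated and regressed shares were above this background, whereas 0 of 49 cells does not tell whether the progressed share was above or below. The medians before thinning were 4873, 4248 and 4673 UMIs in Monocytes1 and 4654, 3152 and 4388 UMIs in stromal cells.

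F10 and Msr1 were less clear. F10 (chr8:13037308-13056676) was at 286, 89.8 and 185 CPM, with a log2 ratio of -1.67 (-2.05 to -1.30) between the regressed and untreated tumors. Its ratio of 1.04 between the progressed and regressed tumors turned to -0.16 when cells were thinned to 1000 UMIs. Msr1 (chr8:39543232-39642750) was at 164, 244 and 117 CPM, and its progressed and untreated levels did not differ beyond counting error (-0.49, -1.11 to 0.08).

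**Figure D2:**
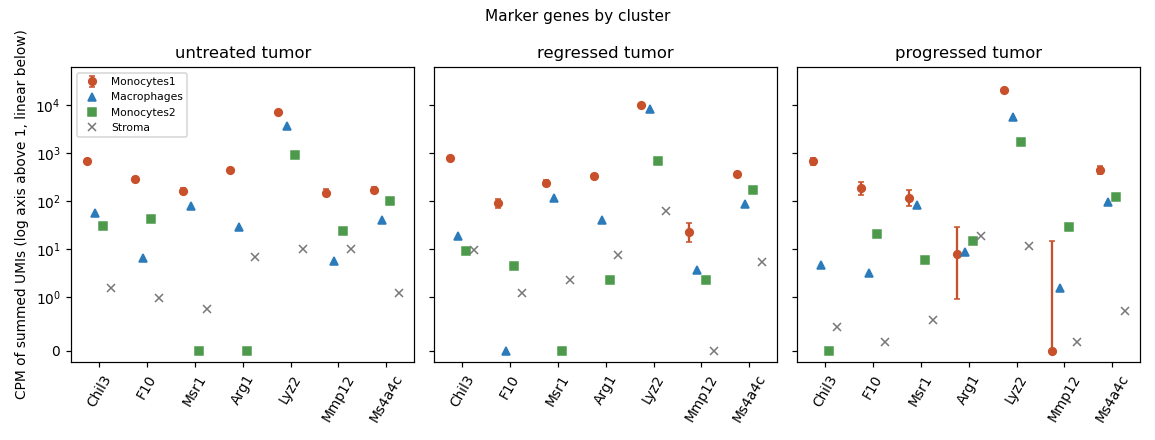
Level of the 7 given markers in Monocytes1, Macrophages, Monocytes2 and stromal cells, 1 panel per tumor, in CPM of summed UMIs on an axis that is logarithmic above 1 and linear below; bars on Monocytes1 are exact 95% Poisson intervals. In Monocytes1, Lyz2 stands at 7254 CPM without treatment and 20673 CPM at progression, while Arg1 stands at 444 and 8.04 CPM and Mmp12 at 0 at progression.

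Over all genes, differences of at least 2-fold were common among these 3 libraries. Between the regressed and untreated tumors 12.5% of 8304 genes with at least 20 UMIs in the 2 sums together were higher and 3.19% lower. A gene with no UMI in 1 of these sums could therefore enter through the other. The median log2 ratio of all genes in that comparison was 0.21, and TMM scaling moved it to -0.06 and the counts from 1042 higher and 265 lower to 608 and 511. Between the progressed and untreated tumors 6.53% of 6787 genes were higher and 10.8% lower, with a median of 0.01. Between the progressed and regressed tumors 4.54% of 6623 genes were higher and 19% lower, with a median of -0.20. In these bulk sums, fewer cells with a gene and less of it per cell cannot be told apart, and counts of single cells are therefore given beside the main genes.

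Plac8 and Ly6c2, genes of the classical monocyte state, were highest in the progressed tumor. Plac8, a small cysteine-rich protein of immature myeloid cells (chr5:100551589-100572253), was at 3856, 1634 and 6813 CPM. Ly6c2, the surface protein that defines classical monocytes (chr15:75108161-75112066), followed the same order at 722, 265 and 1206 CPM. The log2 ratios of the progressed to the regressed tumor were 2.06 (1.96 to 2.16) for Plac8 and 2.19 (1.93 to 2.45) for Ly6c2. Ly6a2, of the same gene family, differed more, at 195, 30.4 and 378 CPM. Single stromal clusters also held these genes. Plac8 was at 1510 and 3060 CPM in Stroma8 of the untreated and progressed tumors and at 940 CPM in Stroma6 of the regressed tumor. Ly6c2 was at 279 CPM in Stroma8 of the regressed tumor, above Monocytes1, and at 410 CPM in Stroma8 of the progressed tumor. In single cells thinned to 1000 UMIs, Ly6c2 was found in 25.1%, 15.2% and 51.0% of Monocytes1 cells, against 0.385%, 0.808% and 1.12% of all stromal cells together. Without thinning it was in 108 of 225, 69 of 197 and 38 of 53 Monocytes1 cells.

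The members of the classical monocyte list did not all move the same way. Of 15 tested members, 5 were higher and 2 lower by at least 2-fold in the progressed than in the regressed tumor. Over all genes 4.54% were higher and 19% lower. The list's median was 0.14 beside -0.20 for all genes, and its sum had a log2 ratio of 0.74 (0.67 to 0.80). The higher members included Ly6c2, Plac8, F10 and Mcemp1. Those lower were Thbs1, thrombospondin 1, and Vcan, the proteoglycan versican, which was at 177, 272 and 48.2 CPM. Ccr2, the receptor through which monocytes follow Ccl2, was at 974, 1560.0 and 864 CPM, highest in the regressed tumor. It was found in 52.1%, 62.5% and 51.0% of thinned cells and, without thinning, in 68.4%, 81.7% and 79.2%.

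Genes of non-classical monocytes were higher in the progressed tumor as well. Of 8 tested members of that list, 7 were at least 2-fold higher in the progressed than in the regressed tumor and 0 lower. Over all genes 4.54% were higher and 19% lower, and the medians were 1.53 for the list and -0.20 for all genes. Against the untreated tumor 4 of 9 members were higher and 0 lower, beside 6.53% and 10.8% of all genes. Treml4, a receptor on patrolling monocytes, was at 13.3, 26.7 and 80.4 CPM, and Adgre4, an adhesion G protein-coupled receptor, at 33.8, 34.0 and 117 CPM. Cx3cr1, the fractalkine receptor, was at 81.0, 159 and 225 CPM. In the untreated and progressed tumors, respectively, 13 of 225 and 14 of 53 cells held Treml4, and 29 and 19 cells held Adgre4. After thinning to 1000 UMIs, Treml4 was left in 3 of 219, 4 of 184 and 3 of 49 cells and Adgre4 in 5 of 219, 2 of 184 and 3 of 49 cells, too few to order the tumors. Stromal cells at 1000 UMIs held Adgre4 in 0 of 2599, 0 of 1733 and 0 of 3400 cells. A floor of 3 cells would be shares of 0.115%, 0.173% and 0.0882%, which are not exact limits. The summed list was higher at progression than at regression by 1.36 on the log2 scale (1.16 to 1.56) in Monocytes1, by 0.80 in Monocytes2 and by 1.21 (1.12 to 1.30) in stromal cells, but by -0.12 (-0.30 to 0.05) in Macrophages. The part of background RNA in the list's difference was not tested. The progressed cluster thus was higher both in Ly6c2 and in markers of the Ly6c2-low subset.

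Cxcl2 and Cxcl3, inflammatory chemokines, were highest in the untreated tumor. Cxcl2, which draws neutrophils through Cxcr2, was at 5864, 976 and 378 CPM. Cxcl3, its neighbor in the gene cluster on chromosome 5 and a ligand of the same receptor, was at 1442, 154 and 0 CPM. These are the genes whose upstream sequences hold GGGAATTTCC in the lines printed above. The log2 ratios of Cxcl2 to the untreated tumor were -2.59 (-2.69 to -2.48) at regression and -3.96 (-4.27 to -3.66) at progression. Cxcl3 was at least 120-fold lower in the progressed than in the untreated tumor. Thinned to 1000 UMIs, 67.1%, 26.1% and 18.4% of cells held Cxcl2, beside 13.9%, 7.62% and 2.97% of stromal cells, and without thinning 83.6%, 50.8% and 30.2% of Monocytes1 cells did. The same gene was also lower in the Macrophages of both treated tumors, by -3.82 (-4.31 to -3.36) and -1.45 (-1.56 to -1.34) on the log2 scale.

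Of the 15 tested CC and CXC chemokines, 6 were lower and 1 higher in the regressed tumor than without treatment. Over all genes 3.19% were lower and 12.5% higher, and the medians were -0.55 for the chemokines and 0.21 for all genes. In the progressed tumor 8 of 16 chemokines were lower and 3 higher than in the untreated one, beside 10.8% and 6.53% of all genes. Their median was -1.04 beside 0.01 for all genes. Neutrophil genes moved the same way in Monocytes1 (3405, 986 and 149 CPM), and Neutrophils held 40362, 31954 and 17285 CPM of the chemokines. The progressed value of Neutrophils rests on 4 cells with 7058 UMIs in all. Without the cells rich in collagens or in S100a8 and S100a9 the chemokine sum in Monocytes1 had log2 ratios to the untreated tumor of -1.46 at regression and -1.17 at progression, beside -1.50 and -1.23 with them. Ccl3 (812, 124 and 237 CPM) and Ccl4 (398, 114 and 145 CPM), which draw monocytes and T cells, were lowest in the regressed tumor. Ccl2, the chemokine that recruits Ccr2-bearing monocytes, differed from these, at 432, 250.1 and 1053 CPM. Ccl2 was low in the regressed tumor in Macrophages (1664, 349 and 1626 CPM) and in stromal cells (320, 80.9 and 947 CPM) too. Ccl5 and Cxcl10 were also higher in the progressed tumor, but 1 cell held 63.3% of the Ccl5 UMIs and 1 cell 74.2% of the Cxcl10 UMIs. Pf4, platelet factor 4, was at 799, 245 and 0 CPM, with 54.7% of the untreated UMIs in 1 cell.

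Several cytokine and acute phase genes were also highest in the untreated tumor. Il1b, interleukin 1 beta, was at 2396, 1006 and 1033 CPM, and the last pair did not differ beyond counting error (0.04, -0.17 to 0.24). Il1a was at 112, 1.21 and 4.02 CPM, with 126, 1 and 1 UMIs, and Ptgs2, which makes prostaglandins, at 182, 57.1 and 24.1 CPM. In the regressed tumor 4 of 11 tested cytokine genes were lower and 0 higher than without treatment (median -0.83), beside 3.19% lower over all genes (median 0.21). In the progressed tumor 6 of 10 were lower and 0 higher (median -1.78), beside 10.8% lower over all genes (median 0.01). The inhibitors Il1rn (206, 204 and 40.2 CPM) and Il1r2 (132, 58.3 and 8.04 CPM), which block interleukin 1, were among those lower in the progressed tumor. The cytokine list summed to 3920, 1951 and 2456 CPM in Monocytes1 and to 16529, 16150 and 24369 CPM in Neutrophils, whose marker genes fell in the order given above. The last Neutrophil value rests on 4 cells. Without the cells rich in collagens or in S100a8 and S100a9 the log2 ratios of the cytokine sum to the untreated tumor were -1.09 and -0.69, beside -1.01 and -0.67 with them. Tgfb1, by contrast, was at 471, 318 and 760 CPM.

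Nfkbia, an inhibitor of NF-kB that NF-kB itself induces, was at 1479, 556 and 784 CPM, and Ier3, an early response gene, at 1730.0, 503 and 398 CPM. Of 17 tested inflammasome and Toll-like receptor genes, 4 were lower at regression and 3 at progression than without treatment, and 0 were higher. Over all genes 3.19% were lower at regression and 10.8% at progression. Slpi, an inhibitor of neutrophil elastase, was at 949, 172 and 366 CPM, and Inhba, the activin A chain, at 266, 15.8 and 48.2 CPM. Wfdc21 was at 495, 12.1 and 0 CPM, at least 41.0-fold lower in the progressed than in the untreated tumor. Lrg1, a leucine-rich glycoprotein, was at 292, 26.7 and 4.02 CPM. Saa3, an acute phase protein, was at 1099.9, 2.43 and 36.2 CPM, but stromal cells held as much in the untreated tumor (1345, 15.4 and 2.67 CPM). The part of free RNA in the Saa3 values was not tested.

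S100a8 and S100a9, which form calprotectin and are most abundant in neutrophils, were at 2506, 561 and 64.3 CPM and at 673, 286 and 0 CPM. Without the cells rich in collagens or in these genes, S100a8 was at 940, 402 and 70.5 CPM, so that its order held. S100a8 was in 55.7%, 32.1% and 6.12% of thinned Monocytes1 cells and in 29.5%, 23.9% and 0.353% of stromal cells, whose levels moved the same way. The unthinned shares in Monocytes1 were 88.9%, 70.1% and 9.43%.

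Ferritin and osteopontin were highest in the untreated tumor. Fth1, the ferritin heavy chain, which stores iron (chr19:9980600-9985111), was at 32138, 10047 and 8329 CPM. Ftl1, the light chain, was at 6068, 4114 and 2609 CPM. The log2 ratio of Fth1 to the untreated tumor was -1.68 (-1.71 to -1.64) at regression and -1.95 (-2.01 to -1.88) at progression. In Macrophages the same ratios of Fth1 were -0.36 (-0.42 to -0.30) and 0.07 (0.03 to 0.10), and in stromal cells -0.72 and -0.48. Of 7 tested genes of iron and heme, 1 was lower at regression than without treatment, Fth1, and 2 at progression, both ferritin chains. Over all genes 3.19% were lower at regression and 10.8% at progression. The list medians were -0.56 at regression and 0.22 at progression, beside 0.21 and 0.01 for all genes. At regression the lower values were thus not confined to the ferritin chains. Spp1, osteopontin (chr5:104435111-104441053), was at 1418, 1088 and 64.3 CPM, and 98, 70 and 4 cells held it. After thinning, 1 of 49 progressed cells held Spp1 (2.04%), beside 8.29% of stromal cells, too few cells to tell whether the share was above or below.

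**Figure D3:**
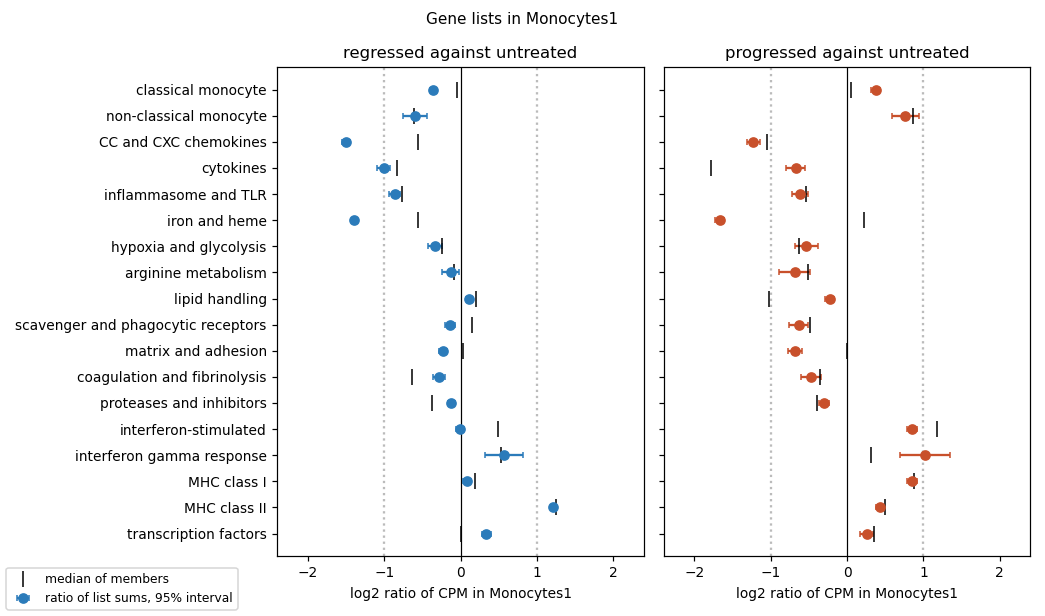
Differences of gene lists in Monocytes1 between each treated tumor and the untreated one, as log2 ratios of the summed CPM of each list's members (points, with exact 95% intervals) and as the median log2 ratio of the tested members (black ticks); dotted lines mark 2-fold. At regression the sums of chemokines (-1.50) and iron genes (-1.39) stand lower and that of MHC class II (1.21) higher than without treatment.

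MHC class II genes, which present peptides to CD4 T cells, were highest in the regressed tumor. H2-Aa, the alpha chain of I-A (chr17:34282744-34287823), was at 1689, 4166 and 2376 CPM. Cd74, the invariant chain, was at 5360.5, 11505 and 6608 CPM, and H2-Eb1, the beta chain of I-E (chr17:34305867-34316674), at 1129, 3162 and 1559.6 CPM. Over all genes 12.5% were at least 2-fold higher and 3.19% lower in the regressed tumor than without treatment, with a median of 0.21. Of 8 tested members of the list, 7 were higher and 0 lower, with a median of 1.26. Ciita, the master regulator of these genes, was among them, at 20.5, 47.3 and 16.1 CPM. Between the progressed and untreated tumors 1 of 7 was higher, H2-DMa, which loads the peptides (322, 539 and 655 CPM), beside 6.53% of all genes.

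Both chain genes whose upstream sequences are printed above, with an ATTGG in capitals, belonged to this group. H2-Aa was found in 31.1%, 56.0% and 49.0% of thinned Monocytes1 cells, and in 2.46%, 15.3% and 5.44% of stromal cells, which should lack it. Unthinned, 44.9%, 76.1% and 58.5% of Monocytes1 cells held it. The summed list was at 10537, 24444 and 14241 CPM in Monocytes1, 159, 1080.4 and 344 CPM in stromal cells. Its log2 ratio of the regressed to the untreated tumor was 1.21 (1.18 to 1.25) in Monocytes1, 0.83 (0.80 to 0.85) in Macrophages and -0.12 (-0.14 to -0.09) in Monocytes2. The same sum was also higher in stromal cells of the regressed tumor, by 2.77 on the log2 scale, and the part of such background in the result was not tested.

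Complement component 1q, made by macrophages, was higher in the regressed tumor too. C1qa was at 129, 489 and 96.5 CPM, C1qb at 196, 663 and 285 CPM and C1qc at 99.7, 296 and 68.3 CPM. In Macrophages C1qa was at 4498, 5764 and 6603 CPM, so the levels in Monocytes1 stayed far below. Mrc1, the mannose receptor, was at 48.9, 153 and 4.02 CPM, the last from 1 UMI. Cd209a, a lectin of dendritic cells and of monocyte-derived cells, was at 7.12, 108 and 12.1 CPM, with 40.4% of the regressed UMIs in 1 cell. Of 12 tested macrophage genes, 4 were higher and 1 lower in the regressed tumor than without treatment, beside 12.5% and 3.19% of all genes. The macrophage list's sum had a log2 ratio of 0.47 (0.42 to 0.51) in this comparison in Monocytes1 and of 0.71 (0.69 to 0.73) in stromal cells.

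Cebpb, a transcription factor of monocyte differentiation and inflammation (chr2:167688915-167690432), was at 232, 1989 and 233 CPM. It was in 22.4%, 67.9% and 16.3% of thinned cells, and in 60.4%, 88.8% and 56.6% without thinning. The log2 ratio of the regressed to the untreated tumor was 3.10 (2.91 to 3.29). The ratio in stromal cells was 2.56 (2.45 to 2.68), with 6.08%, 26.3% and 4.91% of these cells holding the gene, whereas it was 0.70 (0.35 to 1.04) in Macrophages and 0.18 (-0.38 to 0.74) in Monocytes2. Jund, an AP-1 subunit, was at 246, 947 and 205 CPM, and its ratio in stromal cells was 2.03, near that of 1.94 in Monocytes1. Of 19 tested transcription factors, 2 were higher in the regressed tumor than without treatment, Cebpb and Cebpa (25.8, 94.7 and 80.4 CPM), and 1 was lower. Over all genes 12.5% were higher and 3.19% lower, so that the share of higher factors was near that of all genes.

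In the progressed tumor the higher factors were Cebpa, Cebpd, Irf5 and Batf3. Irf5, which acts downstream of Toll-like receptors, was at 219, 158 and 506 CPM. Cebpd was at 171, 171 and 575 CPM, with 50.3% of the progressed UMIs in 1 cell. Without the cells rich in collagens or in S100a8 and S100a9 it was at 165 CPM in the untreated and 308 CPM in the progressed tumor, and no longer passed the 2-fold limit.

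Interferon-stimulated genes were higher in the progressed tumor. Of 12 tested, 8 were at least 2-fold higher and 0 lower than in the untreated tumor, beside 6.53% and 10.8% of all genes. Their median was 1.19 beside 0.01 for all genes. Irf7, which amplifies the interferon response, was at 67.6, 102 and 225 CPM. Isg15, a ubiquitin-like protein, was at 71.2, 110.5 and 185 CPM, and Zbp1, a sensor of nucleic acids, at 118, 117 and 265 CPM. Ifitm3, an antiviral membrane protein and the most abundant of the list, was at 3919, 3819 and 6970.0 CPM. The summed list had a log2 ratio of 0.86 (0.79 to 0.92) to the untreated tumor, and 0.87 in Macrophages, -0.08 in Monocytes2 and -0.14 in stromal cells. The progressed tumor differed in Ifitm1, which is of the same family, in the other direction (824, 623 and 40.2 CPM).

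MHC class I genes summed to 6614, 7030.3 and 11938 CPM, led by B2m, the common light chain (3397, 3330.0 and 6263 CPM). The sum's log2 ratio of the progressed to the untreated tumor was 0.85 in Monocytes1, 0.89 in Macrophages and 0.85 in stromal cells. The difference was of like size in these 3 but smaller in Monocytes2, at 0.24 (0.18 to 0.31). For H2-T23 the ratio of the regressed to the untreated tumor was 2.12 in Monocytes1, 2.87 in Macrophages and 2.36 in stromal cells.

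Several genes of lipid uptake and export were lower in the progressed tumor. Of 12 tested genes of lipid handling 6 were lower and 1 higher than in the untreated tumor, beside 10.8% and 6.53% of all genes. The median was -1.02 beside 0.01 for all genes. The list's sum had a log2 ratio of only -0.22 (-0.29 to -0.16) in Monocytes1, and of 0.42 in Macrophages and 0.23 in Monocytes2. Cd36, a fatty acid receptor, was at 263, 254 and 48.2 CPM, Fabp5, a fatty acid binding protein, at 65.0, 76.5 and 12.1 CPM, and Abca1, a cholesterol exporter, at 83.6, 75.3 and 16.1 CPM. Lpl, lipoprotein lipase, was the higher one, at 61.4, 54.6 and 161 CPM. Trem2, a lipid receptor of macrophages, was even at 234, 225 and 229 CPM. Of 14 genes of this list tested between the regressed and untreated tumors, 0 passed the fold in either direction.

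Several genes of proteases and their inhibitors also stood lower in the progressed tumor, such as Ctsl, cathepsin L, at 1014, 664 and 225 CPM. Of 17 tested proteases and inhibitors, 7 were lower and 0 higher than in the untreated tumor. The median was -0.39 beside 0.01 for all genes, of which 10.8% were lower and 6.53% higher. Clec4d and Clec4n, lectins that bind fungal and mycobacterial glycans, were at 701, 344 and 145 CPM and at 391, 413 and 92.5 CPM. Of 14 tested genes of matrix and adhesion, 3 were lower than in the untreated tumor, namely Spp1, Sdc4 and Vcan, and 1 was higher. The median of the matrix and adhesion list was 0.002, while its sum had a log2 ratio of -0.68 (-0.77 to -0.60). Its members thus did not move together.

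Several genes chosen by size alone were highest in the progressed tumor. Klra2, a C-type lectin receptor, was at 61.4, 92.3 and 285 CPM, Bcl3, a nuclear partner of NF-kB, at 48.9, 64.3 and 225 CPM, and Clec12a, an inhibitory lectin, at 83.6, 151 and 310 CPM. Tgm2, a transglutaminase, was at 109, 123 and 398 CPM, and at 423 CPM in the progressed tumor without the cells rich in collagens. The study's authors report higher Tgm2 in non-immune stromal cells of the progressed tumor. The part of free RNA in the Tgm2 values of Monocytes1 was not tested. Trf (192, 363 and 639 CPM) and Ly86 (170.0, 245 and 563 CPM) were also among the 8 largest differences to the untreated tumor. Apoc2 (434, 215 and 925 CPM), Smpdl3a (406, 255 and 908 CPM) and Cdkn2d (170.0, 110.5 and 386 CPM) were among the largest differences to the regressed tumor. The largest differences of the regressed over the untreated tumor included Krt1, Tpsb2, Cma1, Defb6, Krtdap and Krt15, genes of keratinocytes and mast cells. These 6 were at 135 to 285 CPM in Monocytes1 of the regressed tumor and at 116 to 246 CPM in its stromal cells.

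The cells of the cluster differed among themselves. Thinned to 1000 UMIs per cell, which left out 6, 13 and 4 shallower cells, the untreated cells held a median of 1 UMI of Ly6c2 and Plac8 together, with a highest cell of 31. In the regressed tumor the median was 1 and the highest cell 16, and in the progressed tumor the median was 7 and the highest cell 26. At least 1 UMI of the pair was in 58.9%, 52.7% and 89.8% of the cells. For Cxcl2 and Cxcl3 together the medians were 2, 0 and 0 UMIs and the highest cells 146, 28 and 4. MHC class II ran from 0 to 104, 0 to 97 and 0 to 103 UMIs, with medians of 1, 6 and 3. For MHC class II, each tumor thus held cells without a UMI and cells rich in them.

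**Figure D4:**
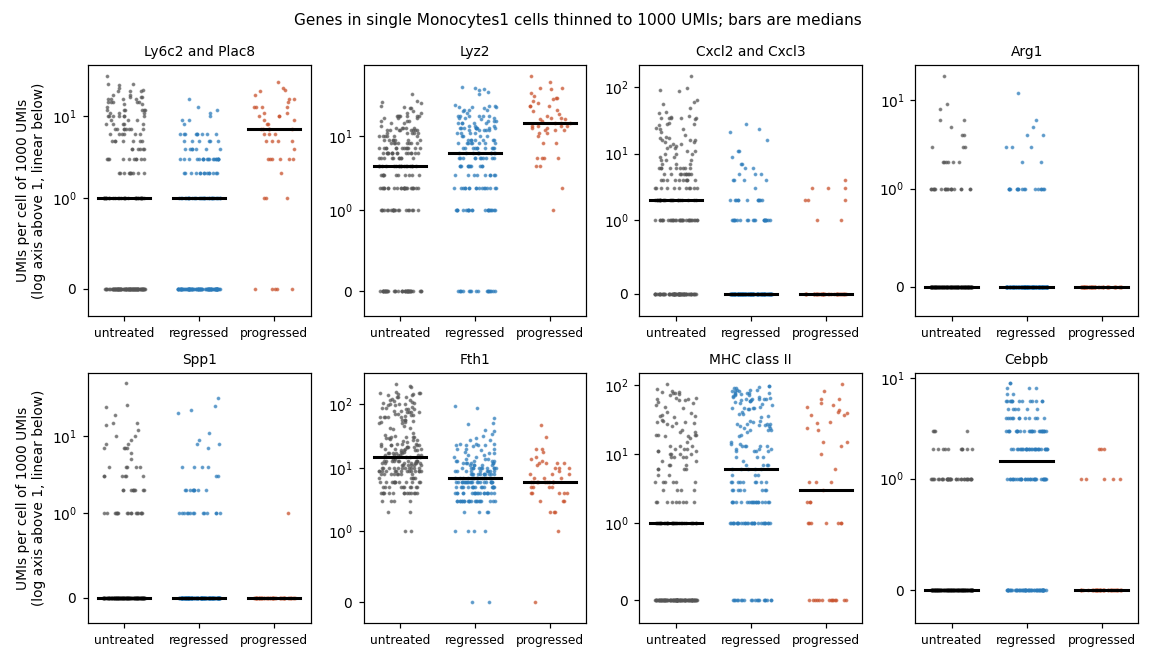
UMIs per Monocytes1 cell of 8 genes or gene groups after thinning each cell to 1000 UMIs, for 219 untreated, 184 regressed and 49 progressed cells, on an axis that is logarithmic above 1 and linear below; each point is a cell and the bar is the median. The median of Ly6c2 and Plac8 is 7 in the progressed tumor and 1 in the others.

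In the untreated tumor the monocyte genes and the inflammatory genes were found in different cells to a degree. Of the 37 cells with Arg1, 10 held Ly6c2 or Plac8, against 119 of 182 cells without Arg1. Of the same 37 cells, 33 held Cxcl2 or Cxcl3, against 116 of 182, and 21 held Spp1, against 35 of 182. In the regressed tumor 7 of 27 cells with Arg1 held Ly6c2 or Plac8, against 90 of 157 without. Cells with Chil3 more often held Ly6c2 or Plac8, 58 of 74 against 71 of 145 in the untreated and 42 of 58 against 55 of 126 in the regressed tumor. Arg1 and Chil3, both given as markers of the cluster, thus lay on different sides of this division in the untreated tumor.

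Across the 219 thinned untreated cells, Spearman's rho was 0.66 between Ly6c2 with Plac8 and Lyz2, and -0.42 between Ly6c2 with Plac8 and Fth1. Between Cxcl2 with Cxcl3 and Fth1 it was 0.55, and between Cxcl2 with Cxcl3 and Spp1 it was 0.44. In the regressed tumor rho between Ly6c2 with Plac8 and Lyz2 was 0.54 over 184 cells. The cells share a library and a fixed depth, within which more UMIs of 1 gene leave fewer for others, and these values are a description of 1 tumor each.

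Against Macrophages, a larger cluster, 2.27% of 6334 genes were at least 2-fold higher in all 3 tumors and 2.9% lower. The clusters were made from these genes, so that the differences describe the clusters and nothing is read from these shares. Plac8 was higher by at least 4.97 on the log2 scale in every tumor, with 103, 52.0 and 137 CPM in Macrophages, and Ly6c2 by at least 4.25. Hp, haptoglobin, which binds free haemoglobin (633, 373 and 848 CPM against 32.2, 40.8 and 3.95), and Gsr, glutathione reductase (362, 473 and 615 CPM against 37.2, 33.4 and 11.1), were higher too. So were Plaur, the urokinase receptor, by at least 3.17, Lgals3, galectin 3, by at least 2.64, and S100a11 by at least 2.48 on the log2 scale. Of 13 classical monocyte genes tested in all tumors, 11 were higher and 1, F13a1, lower than in Macrophages.

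Nearly all tested macrophage genes were lower than in Macrophages. Of 14 macrophage genes, 13 were lower and 0 higher in all 3 tumors. Ccl8, a chemokine of resident macrophages, was at 2945, 3916 and 3848 CPM in Macrophages, with log2 ratios of -6.27, -6.53 and -6.73 in Monocytes1. Ccl8 and Ccl12 each have a second feature in the tables that holds identical counts. The scavenger receptors Cd163 (187, 256 and 161 CPM in Macrophages) and Stab1 (388, 338 and 356 CPM) and the enzymes Cbr2 and Ltc4s were lower as well. C1qa was lower by a log2 ratio of -5.12 without treatment, -3.56 at regression and -6.10 at progression, so the clusters lay nearest for this gene in the regressed tumor.

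Against Monocytes2, 2.55% of 6007 genes were higher in all 3 tumors and 2% lower. Apoc2 was higher by at least 4.96 and Lyz2 by at least 2.99 on the log2 scale, and Chil3 by at least 4.50. Pla2g7, which cleaves platelet-activating factor, and Thbs1 were also among the largest. All 9 tested MHC class II genes and all 9 tested dendritic cell genes were lower in Monocytes1. MHC class II summed to 79078, 72982 and 83709.8 CPM in Monocytes2. Mgl2, a lectin (255, 623 and 691 CPM in Monocytes2), and H2-Oa, which modulates peptide loading (237, 159 and 172 CPM), were nearly absent from Monocytes1. Cd209a (197, 441 and 386 CPM in Monocytes2) was lower in Monocytes1 by log2 ratios of -4.79, -2.03 and -5.00. Retnla, a secreted protein of alternatively activated cells, was at 110.3, 0 and 52.3 CPM in Monocytes1, beside 2567, 0 and 14770.7 CPM in Monocytes2 and 3290.1, 3.71 and 3852 CPM in Macrophages.

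**Figure D5:**
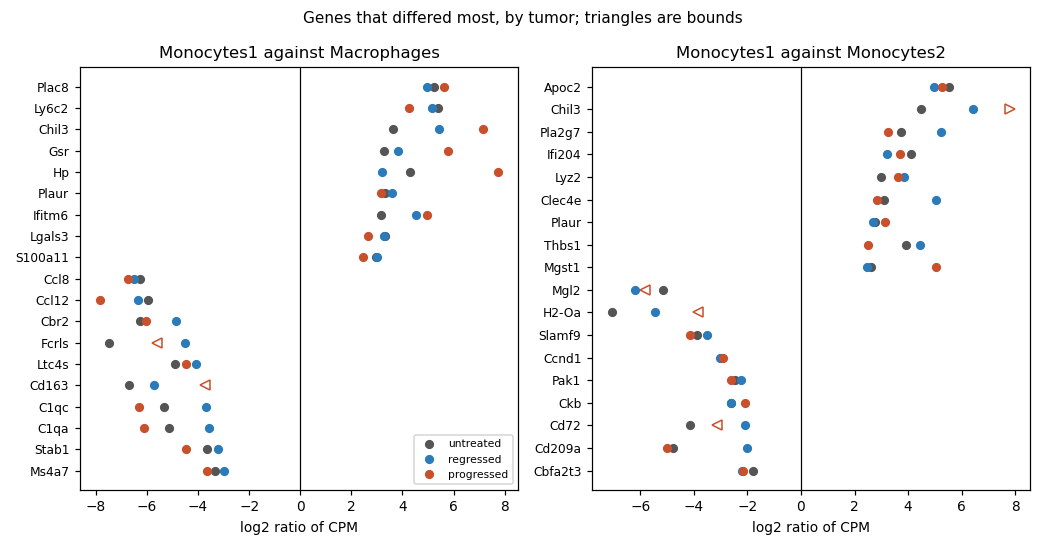
Log2 ratio of CPM in Monocytes1 to Macrophages (left) and to Monocytes2 (right) for the genes that differed most, with 1 point per tumor; triangles are bounds at the floor of 3 UMIs, for a gene without a UMI in 1 of both clusters. Every point of Plac8 lies at or above 4.97 against Macrophages, and C1qa lies at -5.12, -3.56 and -6.10.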

How the data were processed

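The authors digested tumors with collagenase and trypsin and took up the cells in buffer with propidium iodide. They prepared 10x Chromium 3′ v2 libraries, aligned reads with GSNAP to GRCm38 (mm10) and counted UMIs of uniquely mapping sense reads in exons. They left out cells under 300 UMIs and named clusters with Seurat 2.2.0. The deposited tables hold raw UMI counts per gene and cell, and the deposited cluster table a name per cell. The members and gene lists were chosen with earlier results of these data known.

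Of 36530 features, 31049 matched a mouse symbol by Entrez ID and 5479 did not (4.60% of Monocytes1 UMIs), and 2 were the transgene features tdTomato and tWPRE. Count sums of Monocytes1 exceeded the deposited totals per cell by 5.33%. UMIs were summed per tumor and cluster and divided by their total. A comparison used genes with at least 20 UMIs in its 2 sums together and a 2-fold difference, in all 3 tumors for comparisons of clusters. Named were the given markers, for each tumor comparison the 8 genes each way with the largest log2 ratio (at least 50 UMIs and 100 CPM in the higher tumor, at most 25% of UMIs in 1 cell, leaving out haemoglobin, mitochondrial, ribosomal, sex-linked and unnamed genes), the 10 each way between clusters, and, in each of 40 lists, the 4 members with most UMIs and those past the fold at 50 CPM or more. The miRNA gene features that met the rule, Mir6236, Mir5107 and Mir7678, are not described, as the kit does not measure mature miRNAs. A few other named genes and 1 allele of the model are not reported here. Single cells were thinned to 1000 UMIs with a fixed seed. Intervals were tested on simulated counts. Alternatives were other minimums, TMM (edgeR 4.0.16, factors only) and median-of-ratios scaling, thinning, equal weight per cell and leaving out cells. Promoters came from RefSeq (GRCm38.p6). Python 3.11.15, numpy 2.4.6, scipy 1.17.1, pandas 2.3.3, matplotlib 3.10.9 and R 4.3.3 were used.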

Additional observations from a re-analysis of the deposited data

How the results depend on the processing

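No paired analysis was possible because each condition was 1 tumor, and for the same reason no replicate could be left out. As a share of all cells Monocytes1 made up 5.49%, 5.29% and 1.09% of the untreated, regressed and progressed tumors, as a share of Monocytes1 plus Macrophages 41.9%, 57.9% and 13.5%, and of immune cells with at least 1000 UMIs 23.4% in the regressed tumor. Counts of genes depended on the minimum of UMIs and on depth. Between the regressed and untreated tumors, 2476 genes were higher and 664 lower at a minimum of 5 UMIs, 471 and 138 at 50, 608 and 511 with TMM, 636 and 477 with median-of-ratios scaling, and 320 and 170 with cells thinned to 1000 UMIs. Between the progressed and untreated tumors, 1471 were higher and 1089 lower at 5, 171 higher and 267 lower at 50, and 169 and 292 with thinning. Between the progressed and regressed tumors, 726 and 2080 were found at 5, 147 and 416 at 50, and 170 and 323 with thinning. Thinning left 70 genes higher and 80 lower than in Macrophages and 60 and 18 than in Monocytes2. Thinning lowers the UMIs and with them the genes tested.

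Directions turned in few cases, and apart from values set to the floor the cause was not tested. The log2 ratio of the regressed to the untreated tumor turned for Chil3 (TMM -0.0555, median-of-ratios -0.029), and for the sums of alternative activation (-0.13 and -0.10, equal weight per cell -0.0053, thinned -0.091), lipid handling (-0.16 and -0.14), MHC class I (-0.18 and -0.16) and costimulation (-0.14 and -0.12). With thinning it turned for Ly86 (-0.35) and cell cycle genes (0.33). Thinning also turned F10 (-0.16) and Lrg1 (1.17) between the progressed and regressed tumors, and Mrc1 (0.29) and T and NK cell genes (0.045) between the progressed and untreated tumors. Fibroblast genes turned in the progressed tumor, to -0.34 against the untreated tumor when the deepest 5% of cells were left out, and against the regressed tumor to -0.25 with equal weight per cell, -0.37 with thinning, -1.20 without those cells and -0.58 without cells rich in collagen or S100a8 and S100a9, an alternative chosen after seeing the data. Of the values of named genes under alternatives, 839 moved less than their counting interval, 123 moved more in the same direction and 6 turned, Lrg1 and Mrc1 at the floor among them. For lists the numbers were 637, 266 and 17. These totals pool settings that differed much. For lists TMM alone gave 47, 64 and 4 in the same order, and median-of-ratios scaling 51, 60 and 4. Thinning to 1000 UMIs gave 64, 53 and 4 for genes and 59, 52 and 4 for lists. The 53 progressed cells limit every statement on that tumor.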

Other observations

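Further gene groups of Monocytes1 are given as values. Genes of the cell cycle were nearly absent, at 137, 72.8 and 40.2 CPM, again in the order untreated, regressed, progressed, beside 658, 193 and 688 CPM in Monocytes2. Receptors of colony-stimulating factors, on which monocytes depend, were even at 1114, 957 and 1077 CPM. Targets of the MAPK pathway, which vemurafenib acts on in melanoma cells, were at 384, 340 and 317 CPM, with log2 ratios to the untreated tumor of -0.17 (-0.40 to 0.05) at regression and -0.27 (-0.64 to 0.08) at progression, neither beyond counting error. Arg2, a second arginase, was at 57.8, 20.6 and 8.04 CPM, and thus lowest where Arg1 was lowest. Osm, oncostatin M, was at 432, 243 and 502 CPM.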
